A study of Homo sapiens with 9 samples.

Results

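Integrins are the receptors by which cells grip the extracellular matrix, and 10 of their subunits were followed here in cells of MDA-MB-231, a line from a triple-negative human breast cancer that is mesenchymal in character. The members were 5 alpha subunits (ITGA2, ITGA3, ITGA5, ITGA6 and ITGAV) and 5 beta subunits (ITGB1, ITGB3, ITGB4, ITGB5 and ITGB8), chosen by name with no threshold on a measured value. Each had 1 row among the 26475 rows of a table of estimated read counts, and all 10 passed the filter on low counts in all 9 libraries. RNA came from 3 groups of 3 libraries. ACSL4 knockdown cells were stably transduced with pLKO.1-shACSL4, which encodes a hairpin RNA directed at ACSL4, an enzyme that joins polyunsaturated fatty acids to coenzyme A. PRGL493-treated cells were empty-vector cells given PRGL493, an inhibitor of ACSL4, at a dose, for a time and in a vehicle that the labels do not give. Control cells carried the empty pLKO.1 vector and were not treated. All 9 libraries therefore came from vector-transduced cells, and the labels name a single shACSL4 construct. Replicates of a group were of the same engineered cells, so the p-values cover the spread between such replicates only.

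An integrin is a pair of an alpha and a beta subunit that both span the membrane. The pair decides the ligand. The α3β1, α6β1 and α6β4 pairs bind laminins of the basement membrane, α2β1 binds collagens, α5β1 binds fibronectin, and the pairs of αv bind proteins with an arginine-glycine-aspartate motif, such as vitronectin and the latent form of TGF-β. Talins and kindlins bind the beta tail to switch the receptor on, and focal adhesions or, for α6β4, hemidesmosomes join it to the cytoskeleton. In breast cancer cells integrins are known for their parts in attachment, migration and survival. RNA levels do not measure the protein at the cell surface.

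Library totals ran from 28673940 to 43027217 counts, so that 1 CPM (a count scaled to a common library total with TMM factors) stood for 28.6 to 43.8 counts. ACSL4 was at 23.7 to 29.5 CPM in knockdown libraries, 333 to 360 CPM in PRGL493 libraries and 339 to 366 CPM in control libraries, so the targeted RNA was low only in the libraries labelled knockdown. VIM, CD44, AXL, EGFR and CAV1, known in this line, were all above 171 CPM in every library. Of 5 genes known to be low in it, ESR1, PGR and CDH1 stayed at or below 2.04 CPM, while GATA3 was at 10.9 to 15.2 CPM and ERBB3 at 15.4 to 22.0 CPM. Among leukocyte and endothelial markers, PTPRC, CD3E, VWF and CDH5 stayed at or below 0.428 CPM, PECAM1 lay between 1.10 and 3.11 CPM and CD14 between 19.6 and 41.0 CPM. Knockdown replicate 2 stood apart. Genes with long main transcripts (over 4832 bp) lay there a median log2 of 0.17 below their mean over the libraries (deviation -0.17), and those with short ones (up to 2034 bp) 0.17 above it, while in the other 8 libraries both medians lay from -0.07 to 0.06. The main transcripts of 6 members are over that length, and knockdown replicate 2 was the lowest knockdown library for 7 of the 10. Each knockdown result below is therefore also given without it where that changes the call.

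Levels of different subunits were compared per length, as CPM per kilobase of the main transcript. In all 3 groups ITGB1, the common partner of most alpha subunits, was highest and ITGA3 came next. Control cells held 715 ± 10.4 CPM per kb of ITGB1 and 583 ± 15.5 of ITGA3 (SD, n = 3 each). ITGA6 followed at 161 ± 2.96, ITGA5 at 83.2 ± 3.73, ITGB4 at 73.8 ± 2.84 and ITGB5 at 50.6 ± 1.44 CPM per kb. ITGAV (34.5 ± 1.65) and ITGA2 (33.1 ± 1.74) overlapped between their libraries, so their order was not resolved. ITGB3 was at 9.86 ± 0.900 and ITGB8 at 0.0677 ± 0.0206 CPM per kb. No other neighbours in this order overlapped. Knockdown cells kept the order of the control means, with ITGAV and ITGA2 again overlapping. In PRGL493 cells ITGA5 stood in the sixth place at 50.5 ± 2.11 CPM per kb, below ITGB4 (72.7 ± 4.17) and ITGB5 (58.3 ± 1.36). Taken per longest annotated transcript, ITGA3 in control cells was at 520 CPM per kb and ITGA5 at 74.0, close to ITGB4.

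Summed over the 5 members of each class, alpha subunits came to 836 ± 27.8 CPM per kb in knockdown cells, 672 ± 19.8 in PRGL493 cells and 895 ± 13.4 in control cells (SD, n = 3). Beta subunits came to 833 ± 34.1, 799 ± 14.8 and 850 ± 11.2 CPM per kb in the same groups. Alpha sums lay between 812 and 866 in knockdown cells, 650 and 686 in PRGL493 cells and 880 and 906 in control cells, and did not overlap. ITGA3, the largest part, did not pass the test of single genes below in knockdown cells (log2 fold change -0.11, adjusted p = 0.10). Its value turned to 0.04 once a trend on length and GC content was removed. Beta sums lay between 808 and 872 in knockdown cells, 785 and 814 in PRGL493 cells and 843 and 863 in control cells, so that only those of PRGL493 and control cells were apart. ITGA3 made up 64.6% of the alpha sum in knockdown cells, 66.7% in PRGL493 cells and 65.1% in control cells, and ITGB1 made up 84.9%, 82.4% and 84.2% of the beta sum. No test was run on these sums.

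**Figure D1:**
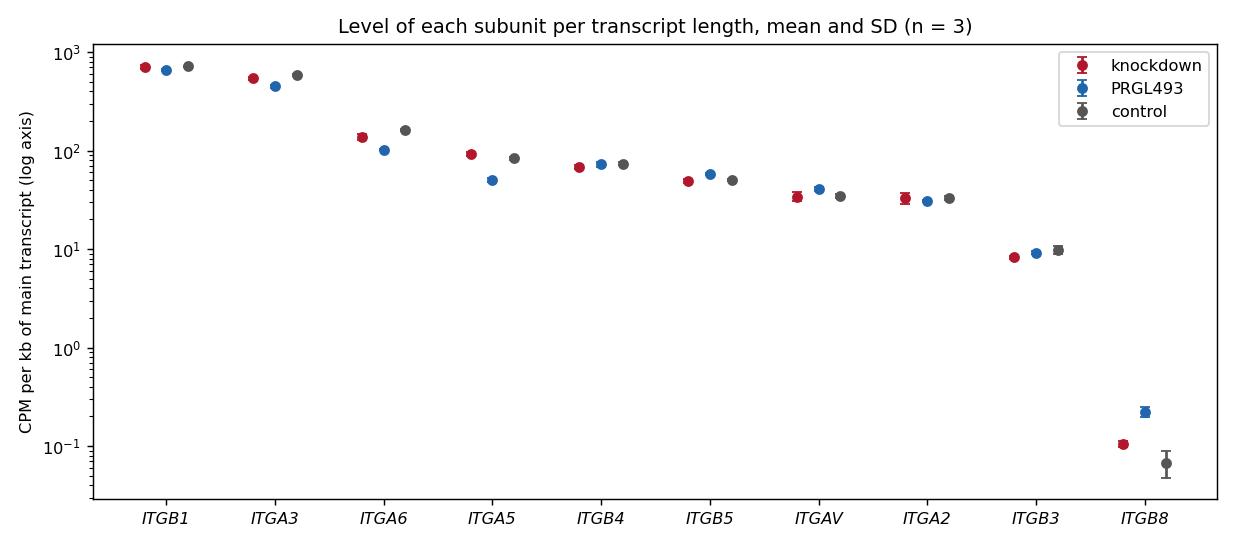
Level of each subunit in knockdown, PRGL493 and control cells as CPM per kilobase of its main transcript, on a log axis. Points are means and bars the SD of 3 libraries. ITGB1 and ITGA3 lie far above the rest, ITGB8 lies near the floor of the plot, and ITGA5 drops below ITGB5 in PRGL493 cells.

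RefSeq promoter windows (GRCh38.p14, from 250 bases before to 50 after the start) were matched by symbol for 7 of the 10, all but ITGA3, ITGB3 and ITGB4. The windows of the members that differed most between groups are shown 5′ to 3′ on the gene's strand: ITGA5 (chr12:54419217-54419516, minus strand), ITGA6 (chr2:172427086-172427385, plus strand, the first of its 2 windows) and ITGB8 (chr7:20330650-20330949, plus strand). Capitals mark matches on either strand to a GC box (GGGCGG), an AP-1 motif (TGANTCA) or a SNAIL-type E-box (CAGGTG).
ITGA5: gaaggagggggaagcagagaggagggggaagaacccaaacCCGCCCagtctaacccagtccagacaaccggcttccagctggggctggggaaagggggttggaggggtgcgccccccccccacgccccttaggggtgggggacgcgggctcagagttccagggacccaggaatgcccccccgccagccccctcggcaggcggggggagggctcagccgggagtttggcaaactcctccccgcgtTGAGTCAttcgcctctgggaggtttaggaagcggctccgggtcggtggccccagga
ITGA6: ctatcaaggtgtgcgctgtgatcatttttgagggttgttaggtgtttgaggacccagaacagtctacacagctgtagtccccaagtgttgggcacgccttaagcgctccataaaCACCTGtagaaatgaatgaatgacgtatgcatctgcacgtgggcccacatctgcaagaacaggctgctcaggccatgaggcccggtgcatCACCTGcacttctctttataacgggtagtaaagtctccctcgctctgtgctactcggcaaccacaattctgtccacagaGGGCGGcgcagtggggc
ITGB8: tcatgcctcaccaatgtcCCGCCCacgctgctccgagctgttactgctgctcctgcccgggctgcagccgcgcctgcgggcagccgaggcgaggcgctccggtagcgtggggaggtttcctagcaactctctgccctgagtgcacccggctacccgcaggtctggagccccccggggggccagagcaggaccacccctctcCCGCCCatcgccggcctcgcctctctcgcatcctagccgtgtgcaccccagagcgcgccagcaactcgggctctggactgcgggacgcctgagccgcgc
A GC box was in the first window of 6 of the 7 members, all but ITGAV, and in 44.6% of the first windows of 27305 genes. The AP-1 motif was found in ITGA5 alone of the 7, 6 bases before the start, and in 7.76% of all genes' windows. SNAIL, which the study's title links to ACSL4, binds E-boxes. Among first windows of the 7 members, the SNAIL-type E-box was in that of ITGA6 alone, at 136 and 46 bases before the start. It was in 20.6% of all genes' windows. Beyond the first windows, a later window of ITGB5 also held this E-box, and the other window of ITGA6 did not. The motif was therefore not limited to ITGA6. These matches describe letters in a window and are not sites shown to be bound.

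The first question was what loss of ACSL4 does to the receptors. In knockdown cells the integrin profile moved little. In bulk RNA a change in the share of cells that express a gene and a change in RNA per cell cannot be told apart. ITGA6 fell to 0.850 and ITGB3 to 0.836 of control, ITGA5 rose 1.11-fold, and 7 members did not pass the test (edgeR quasi-likelihood test, Benjamini-Hochberg adjusted p below 0.05 over 14135 genes). Among all genes tested 30.1% were called, 14.7% higher and 15.3% lower, so 3 of 10 members is close to the background. The median log2 fold change was -0.03 over the members and 0.00 over all genes. Of all calls 49.0% were higher, and 59.8% with scaling by library totals and no TMM factors.

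PRGL493 moved more of the members than knockdown did, as it did of all genes, and in a different pattern. ITGA5, ITGA6 and ITGA3 fell, ITGB8, ITGAV and ITGB5 rose, and 4 members did not pass the test. The background was 41.8% of genes called, 21.4% higher and 20.4% lower. The median log2 fold change was -0.10 over the members and 0.01 over all genes. Of all calls 51.3% were higher, and 61.3% once a trend on transcript length and GC content was removed.

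Both treatments were set against the same control libraries, so their difference was taken from the direct contrast. Knockdown cells held more ITGA5, ITGA6 and ITGA3 than PRGL493 cells and less ITGB8, ITGB5 and ITGAV, and 4 members did not pass the test. Here 50.4% of all genes were called, 24.4% higher and 26% lower in knockdown cells, so the number of members called is close to the background.

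**Figure D2:**
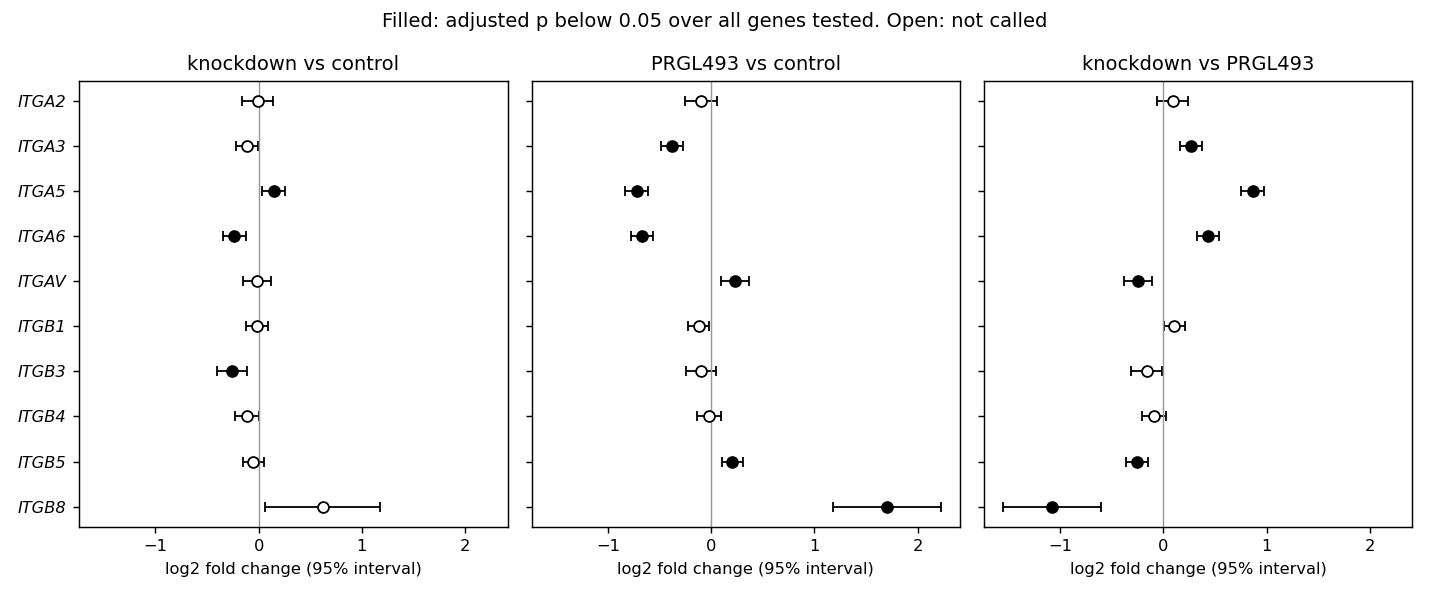
Log2 fold change of each subunit with its 95% interval, from left to right for knockdown over control, PRGL493 over control and knockdown over PRGL493 cells. Filled points passed an adjusted p of 0.05 over all genes. ITGA5 has opposite signs in the first 2 panels (0.15 and -0.72), and ITGB8 has the widest intervals.

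Among the laminin receptors, ITGA6 fell in both treatments, further with PRGL493. The gene lies on chromosome 2 from 172427354 to 172506282, plus strand (GRCh38), and encodes the α6 subunit that pairs with β1 or β4. It had 817, 717 and 776 CPM in knockdown libraries, 566, 578 and 569 CPM in PRGL493 libraries, and 894, 899 and 925 CPM in control libraries. The 3 groups did not overlap. In knockdown cells the log2 fold change was -0.23 (SE 0.05, adjusted p = 0.0025), and it was -0.19 (adjusted p = 0.0018) without knockdown replicate 2. With PRGL493 it was -0.67 (SE 0.05, adjusted p = 3.3e-08), and knockdown exceeded PRGL493 cells by 0.43 (SE 0.05, adjusted p = 3.3e-06).

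ITGA3, on chromosome 17 from 50055968 to 50090481, plus strand, encodes the α3 subunit of a laminin-332 receptor. It had 2549, 2590 and 2772 CPM in knockdown libraries, 2243, 2248 and 2092 CPM in PRGL493 libraries, and 2892, 2893 and 2762 CPM in control libraries. PRGL493 libraries lay below all others, while knockdown and control libraries overlapped. With PRGL493 the log2 fold change was -0.38 (SE 0.05, adjusted p = 1.5e-05). The knockdown value was -0.11 (SE 0.05, adjusted p = 0.10, 95% interval -0.22 to -0.01) and missed the threshold. Knockdown exceeded PRGL493 cells by 0.27 (SE 0.05, adjusted p = 3.0e-04).

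The beta partners of these subunits moved less. ITGB1 (chromosome 10, 32900319 to 33005792, minus strand) had 2840, 2583 and 2612 CPM in knockdown libraries, 2432, 2463 and 2576 CPM in PRGL493 libraries and 2673, 2750 and 2697 CPM in control libraries. The PRGL493 libraries lay below the control libraries without passing the test (log2 difference -0.12, SE 0.05, adjusted p = 0.057, 95% interval -0.22 to -0.02). The call was near the threshold, and it passed in 8 of 19 alternative settings, among them the fits without knockdown replicate 1 (adjusted p = 0.013), knockdown replicate 2 (0.014) and PRGL493 replicate 3 (0.039). In knockdown cells ITGB1 had a log2 fold change of -0.02 (SE 0.05, adjusted p = 0.84, 95% interval -0.12 to 0.09). Against PRGL493 cells it was 0.11 (SE 0.05, adjusted p = 0.083), and 0.13 (adjusted p = 0.015) without knockdown replicate 2.

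ITGB4, on chromosome 17 from 75721328 to 75757818, plus strand, encodes the long-tailed β4 subunit of hemidesmosomes. It had 393, 391 and 426 CPM in knockdown libraries, 440, 448 and 402 CPM in PRGL493 libraries, and 454, 436 and 420 CPM in control libraries, and all groups overlapped. Its log2 fold change was -0.12 in knockdown cells (SE 0.06, adjusted p = 0.12, 95% interval -0.23 to 0.00) and -0.02 with PRGL493 (SE 0.06, adjusted p = 0.78, 95% interval -0.14 to 0.09). Between knockdown and PRGL493 cells it was -0.09 (SE 0.06, adjusted p = 0.17), but turned to 0.12 (adjusted p = 0.012) when a trend on length and GC content was removed, so no direction is given. GALK1 overlaps the gene on the opposite strand and shares 0 of its 6761 exonic bases.

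ITGA5 differed between the treatments. It lies on chromosome 12 from 54395261 to 54419460, minus strand, and encodes the α5 subunit of the classical fibronectin receptor. It had 387, 419 and 421 CPM in knockdown libraries, 229, 231 and 214 CPM in PRGL493 libraries, and 367, 387 and 354 CPM in control libraries. The PRGL493 libraries were far below the others, and the lowest knockdown library was just above the highest control library. With PRGL493 the log2 fold change was -0.72 (SE 0.05, adjusted p = 2.2e-08), a fall to 0.607 of control, and all 19 alternative settings called it. Knockdown exceeded PRGL493 cells 1.82-fold (log2 0.87, SE 0.05, adjusted p = 1.7e-09).

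The rise of ITGA5 in knockdown cells was small (0.15 on the log2 scale, SE 0.05, adjusted p = 0.047) and was called in 9 of 19 alternative settings. It missed the threshold without control replicate 1 (adjusted p = 0.13), control replicate 3 (0.19), knockdown replicate 2 (0.0504), knockdown replicate 3 (0.16), PRGL493 replicate 1 (0.065) or PRGL493 replicate 2 (0.064). Its sign was positive in every setting (0.12 to 0.26).

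ITGA2 encodes the α2 subunit of the collagen receptor α2β1 and lies on chromosome 5 from 52989326 to 53094779, plus strand. It had 287, 225 and 264 CPM in knockdown libraries, 247, 247 and 237 CPM in PRGL493 libraries, and 245, 266 and 270 CPM in control libraries. Knockdown replicates 1 and 2 were the highest and the lowest of all 9 libraries, and the knockdown libraries overlapped both other groups. The log2 fold change was -0.01 in knockdown cells (SE 0.07, adjusted p = 0.94, 95% interval -0.16 to 0.14) and -0.10 with PRGL493 (SE 0.07, adjusted p = 0.29, 95% interval -0.25 to 0.05). Between knockdown and PRGL493 cells it was 0.09 (SE 0.07, adjusted p = 0.32), and 0.18 (adjusted p = 0.0035) without knockdown replicate 2.

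ITGAV and 2 of its partners rose with PRGL493 and were not called in knockdown cells. ITGAV, on chromosome 2 from 186590065 to 186680901, plus strand, encodes αv, which pairs with β1, β3, β5 and β8. It had 268, 223 and 230 CPM in knockdown libraries, 275, 282 and 298 CPM in PRGL493 libraries, and 237, 234 and 256 CPM in control libraries. Every PRGL493 library was above all others, and knockdown and control libraries overlapped. The log2 fold change with PRGL493 was 0.23 (SE 0.06, adjusted p = 0.0081), and 0.19 (adjusted p = 0.052) without PRGL493 replicate 3. In knockdown cells it was -0.01 (SE 0.06, adjusted p = 0.90, 95% interval -0.15 to 0.12). Knockdown was below PRGL493 cells by a log2 difference of -0.25 (SE 0.06, adjusted p = 0.0045).

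ITGB5 (chromosome 3, 124761948 to 124901418, minus strand) encodes the β5 subunit of a vitronectin receptor. It had 203, 223 and 214 CPM in knockdown libraries, 256, 260 and 249 CPM in PRGL493 libraries, and 224, 225 and 214 CPM in control libraries. Again the PRGL493 libraries stood above all others. The log2 fold change was 0.21 with PRGL493 (SE 0.05, adjusted p = 0.0031), -0.05 in knockdown cells (SE 0.05, adjusted p = 0.48, 95% interval -0.15 to 0.05) and -0.26 for knockdown against PRGL493 (SE 0.05, adjusted p = 4.0e-04).

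ITGB8, on chromosome 7 from 20330702 to 20415754, plus strand, encodes the β8 subunit, whose pair with αv is known for activating latent TGF-β. It was the scarcest member. Counts were 43, 32 and 36 in knockdown libraries, 71, 62 and 63 in PRGL493 libraries, and 20, 12 and 24 in control libraries. In CPM these were 0.981, 0.843 and 0.923 in knockdown cells, 1.73, 2.17 and 1.95 with PRGL493, and 0.655, 0.389 and 0.734 in control cells, and no group overlapped another. It was 3.25-fold higher with PRGL493 than in control cells (log2 1.70, SE 0.25, adjusted p = 4.2e-05, 95% interval 1.18 to 2.22). The knockdown value was 0.62 (SE 0.26, adjusted p = 0.085, 95% interval 0.07 to 1.18) and was not called, but passed once a trend on length and GC content was removed (0.73, adjusted p = 0.034). Knockdown was below PRGL493 cells (log2 -1.08, SE 0.22, adjusted p = 7.8e-04). The few counts leave these intervals wide.

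ITGB3 (chromosome 17, 47253846 to 47311816, plus strand) encodes the β3 subunit, the other main vitronectin-binding partner of αv. It had 33.0, 31.5 and 34.3 CPM in knockdown libraries, 38.0, 37.3 and 35.1 CPM in PRGL493 libraries, and 35.4, 42.4 and 40.4 CPM in control libraries. Knockdown libraries were below all others, and PRGL493 and control libraries overlapped. The log2 fold change was -0.26 in knockdown cells (SE 0.07, adjusted p = 0.011), and -0.20 (adjusted p = 0.074) without control replicate 2. With PRGL493 it was -0.10 (SE 0.07, adjusted p = 0.29, 95% interval -0.25 to 0.05). The direct contrast gave -0.16 (SE 0.07, adjusted p = 0.065), and -0.16 (adjusted p = 0.045) without control replicate 1. AC068234.1, a protein-coding gene on the same strand, shares 2266 of the 4394 exonic bases of ITGB3 and has no row here, so reads in those exons cannot be told apart.

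**Figure D3:**
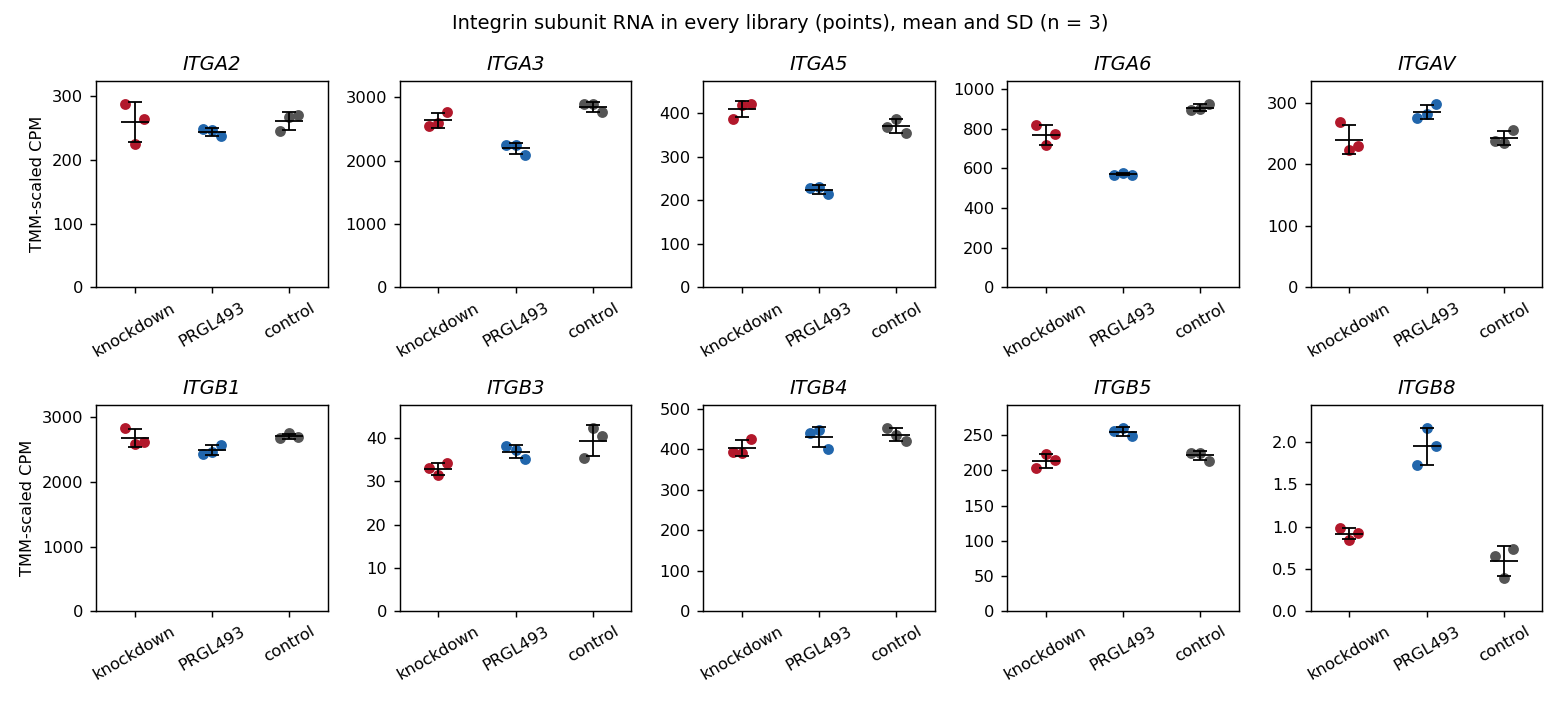
TMM-scaled CPM of each subunit in every library of knockdown, PRGL493 and control cells. Points are libraries, black marks the mean and bars the SD (n = 3), and each axis starts at 0. PRGL493 libraries lie below the rest for ITGA3, ITGA5 and ITGA6 and above the rest for ITGAV, ITGB5 and ITGB8.

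Subunits that compete for a partner or a ligand were set against each other as ratios of counts within a library, which no library scaling affects. The design allows no exact two-sided permutation p below 0.1 with 3 libraries a group, and 12 comparisons were adjusted together, so none could pass a threshold of 0.05. The ratio of ITGA5 to ITGAV was 1.45, 1.88 and 1.83 in knockdown libraries, 0.831, 0.820 and 0.717 in PRGL493 libraries, and 1.55, 1.65 and 1.39 in control libraries. Thus ITGA5 had fewer counts than ITGAV in every PRGL493 library and more in every other library. These counts are not divided by transcript length. Per kilobase ITGA5 stayed above ITGAV in PRGL493 cells (50.5 ± 2.11 against 40.5 ± 1.66 CPM per kb). The mean log2 ratio was -0.34 ± 0.12 in PRGL493 cells and 0.61 ± 0.13 in control cells (SD, n = 3 each, difference -0.95, exact permutation p = 0.1, the smallest possible, adjusted p = 0.24). Knockdown cells, at 0.77 ± 0.21, overlapped control cells (difference 0.16, exact permutation p = 0.3) and exceeded PRGL493 cells by 1.12 (exact permutation p = 0.1).

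The ratio of ITGA3 to ITGA6 was 3.12, 3.61 and 3.57 in knockdown libraries, 3.96, 3.89 and 3.68 in PRGL493 libraries, and 3.24, 3.22 and 2.99 in control libraries. It was higher in every PRGL493 library than in any other (log2 difference from control 0.29, exact permutation p = 0.1). Knockdown overlapped control (0.12, exact permutation p = 0.3). For ITGB3 to ITGB5 the PRGL493 libraries lay below the control libraries (-0.30, exact permutation p = 0.1), and knockdown libraries overlapped control (-0.20, exact permutation p = 0.3). ITGB4 to ITGB1 overlapped between all groups, with log2 differences of -0.10 in knockdown and 0.10 in PRGL493 cells against control (exact permutation p = 0.3 for each).

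**Figure D4:**
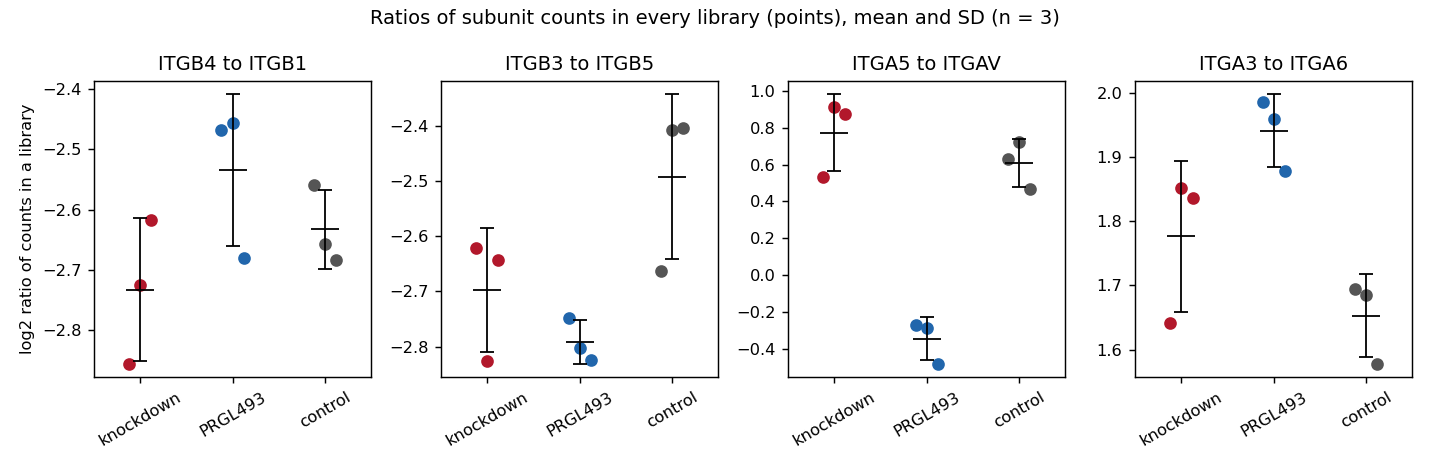
Log2 ratio of the counts of 2 subunits within each library of knockdown, PRGL493 and control cells. Points are libraries, black marks the mean and bars the SD (n = 3), and axes differ between panels. ITGA5 to ITGAV is below 0 in the PRGL493 libraries and above 0 in the other 6. Counts are not divided by transcript length, so a value of 0 does not mean equal levels per kilobase.

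The human family has 26 integrin genes, and 9 of the 16 outside the 10 members passed the filter, most at low levels. In knockdown cells 1 of the 9 rose and 5 fell, and with PRGL493 4 fell, with medians of -0.87 and -0.49. The knockdown median is the value of ITGAM, which was not called (adjusted p = 0.29). ITGAM reached the filter in 0 knockdown, 2 PRGL493 and 2 control libraries, so it was tested through the groups where it is higher, and no conclusion is drawn from that median. Among all genes 14.7% rose and 15.3% fell in knockdown cells, and 21.4% rose and 20.4% fell with PRGL493. With PRGL493 0 rose by edgeR or by DESeq2, and 0 at an unadjusted p below 0.05. ITGB2, the leukocyte β2 subunit, went in opposite directions. It had 8.42, 9.88 and 10.2 CPM in knockdown libraries, 4.33, 4.37 and 4.52 CPM in PRGL493 libraries, and 6.29, 6.49 and 5.84 CPM in control libraries, and the groups did not overlap. Its log2 fold change was 0.61 in knockdown cells (SE 0.10, adjusted p = 2.6e-04), -0.49 with PRGL493 (SE 0.11, adjusted p = 0.0017) and 1.10 between them (SE 0.10, adjusted p = 2.6e-07). CD14, a leukocyte marker, moved with it (0.51 in knockdown and -0.31 with PRGL493, adjusted p = 2.3e-04 and 0.0079), while the leukocyte marker PTPRC stayed at or below 0.0791 CPM in every library. PECAM1, a marker of endothelial cells and some leukocytes, was lower in knockdown cells (-0.58, adjusted p = 0.039) and had 0.21 with PRGL493 (adjusted p = 0.40). ITGAX, the αX partner of β2, fell in both treatments. It had 1.46, 1.24 and 1.18 CPM in knockdown libraries, 3.92, 3.36 and 3.31 CPM in PRGL493 libraries, and 5.99, 4.77 and 4.49 CPM in control libraries. Knockdown lay lowest (log2 fold change -1.97, SE 0.16, adjusted p = 1.0e-07). The PRGL493 value was -0.52 (SE 0.15, adjusted p = 0.0088), and -0.39 (adjusted p = 0.067) without control replicate 1.

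ITGA7, a laminin-binding α7 subunit best known in muscle, fell in knockdown cells (log2 difference -1.34, SE 0.20, adjusted p = 8.1e-05) and with PRGL493 (-0.85, SE 0.19, adjusted p = 0.0020). So did ITGA2B, the platelet αIIb subunit, at 16 to 41 counts per library (to 0.499 and 0.436 of control, adjusted p = 0.0053 and 0.0013). ITGA1, a collagen-binding α1 subunit, fell in knockdown cells (-0.39, SE 0.07, adjusted p = 8.6e-04), and its PRGL493 value was 0.01 (SE 0.07, adjusted p = 0.91). ITGB6, at 4 to 16 counts per library, had a log2 fold change of -1.67 in knockdown cells (SE 0.44, adjusted p = 0.0087) and of -1.06 with PRGL493 (SE 0.42, adjusted p = 0.054). It reached the filter of 0.303 CPM in 0 knockdown libraries, 1 PRGL493 library and 3 control libraries, so it was tested through the group where it is high, and it is 1 of the 5 counted as lower in knockdown cells. ITGAE, ITGA10 and ITGAM were called in neither treatment.

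Most of the laminin and collagen chains tested fell with PRGL493. Of 10 laminin chains tested, 7 fell and 0 rose with PRGL493 by edgeR (median log2 fold change -0.63), against 20.4% lower among all genes. LAMA2, 1 of the 7, had only 16, 11 and 6 counts in PRGL493 libraries. Replicate 3 there (0.186 CPM) was below the filter of 0.303 CPM, so LAMA2 was tested through the groups where it is higher. LAMA3 was higher at an unadjusted p below 0.05, and 1 chain rose by DESeq2. The chains that fell included LAMB3 (-0.79, adjusted p = 4.3e-09), a chain of laminin-332, LAMB1 (-0.65) and LAMC1 (-0.49). In knockdown cells 2 chains fell and 1 rose (median -0.05), against 15.3% lower and 14.7% higher among all genes. Once the trend on length and GC content was taken out, 1 fell and 4 rose. LAMB3 fell by 0.21 on the log2 scale (adjusted p = 0.0052), but missed the threshold (-0.10, adjusted p = 0.068) with that trend taken out. LAMB1 rose by 0.15 (adjusted p = 0.034), a call lost without any 1 control library, without knockdown replicate 1 or 3, or without PRGL493 replicate 2 (adjusted p = 0.0505 to 0.13).

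Of 9 collagen chains 7 fell with PRGL493 (median -0.67), against 20.4% lower among all genes. By edgeR, by DESeq2 or at an unadjusted p below 0.05, 0 rose. The falls were led by COL6A3 (-1.67, adjusted p = 1.4e-10), COL1A2 (-0.78, adjusted p = 1.0e-07), COL4A1 (-0.67) and COL4A2 (-0.56). In knockdown cells COL1A2, a chain of type I collagen, rose to 89.4, 88.2 and 90.6 CPM, against 21.9, 22.9 and 20.7 CPM in control cells (log2 fold change 2.04, SE 0.06, adjusted p = 8.7e-14). COL6A3 (-1.05) and COL4A1 (-0.28) fell, and the median of the list was -0.09. With the length and GC trend taken out, 2 chains fell and 3 rose in knockdown cells.

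Ligands of the αv and α5 receptors moved both ways. In knockdown cells 6 of 13 rose and 4 fell (median 0.05), and with PRGL493 4 rose and 6 fell (median -0.11). The shares among all genes were 14.7% higher and 15.3% lower in knockdown cells, and 21.4% higher and 20.4% lower with PRGL493. Without control replicate 1, 2 rose and 4 fell in knockdown cells. The matricellular proteins CTGF and CYR61 fell in both treatments, CTGF with log2 fold changes of -3.17 in knockdown cells and -2.15 with PRGL493 (adjusted p = 3.9e-16 and 5.8e-14), CYR61 with -1.37 and -0.96 (adjusted p = 7.3e-13 and 9.8e-11). NOV also fell in both (-0.74 in knockdown cells and -1.14 with PRGL493), and EDIL3 rose in both (0.35 and 0.38). TNC, which encodes tenascin-C, fell with PRGL493 (-2.44, SE 0.06, adjusted p = 6.1e-14), as did THBS1, thrombospondin 1 (-0.90, adjusted p = 2.6e-10). In knockdown cells TNC fell less (-0.26, adjusted p = 0.0032) and THBS1 was not called (0.01, adjusted p = 0.91).

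Of 28 focal adhesion adaptors and kinases, 14 fell and 1 rose in knockdown cells (median -0.14), against 15.3% lower among all genes. With PRGL493 11 rose and 5 fell (median 0.04), against 21.4% higher and 20.4% lower among all genes. Actin-linking proteins were among those that fell in knockdown cells, ACTN1 (-0.29, adjusted p = 1.5e-04) and VCL (-0.28, adjusted p = 0.0011), while the scaffold NEDD9 rose (0.52, adjusted p = 8.1e-07). Without knockdown replicate 2, 13 fell and 2 rose, and without control replicate 1, 9 fell and 1 rose. With the trend on length and GC content taken out, 10 fell and 3 rose. With PRGL493 TNS4, a tensin that binds the β1 tail, fell (-2.45, SE 0.10, adjusted p = 6.4e-12), as did PTK2B (-0.46) and ENAH (-0.50), while PARVA rose (0.46). TNS4 (-0.31, adjusted p = 0.0084), PTK2B (-0.21, adjusted p = 0.010) and ENAH (-0.25, adjusted p = 0.0088) were lower in knockdown cells too. There PARVA was not called (-0.08, adjusted p = 0.21). NEDD9 was also higher with PRGL493 (0.33, adjusted p = 6.0e-05).

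The background for the short lists that follow was 14.7% higher and 15.3% lower in knockdown cells, and 21.4% higher and 20.4% lower with PRGL493. Of 5 talins and kindlins, 0 were called in knockdown cells by edgeR or by DESeq2, and 0 had an unadjusted p below 0.05. With PRGL493 3 of them fell, of which FERMT1 (kindlin-1) changed most (-0.68, adjusted p = 1.0e-05). FERMT3 (-0.44, adjusted p = 0.039) and TLN2 (-0.21, adjusted p = 0.046) were close to the threshold, and FERMT1 was the only one called without any 1 control library or without PRGL493 replicate 3. Of 6 other proteins listed as regulators of integrins, TNS1 (-0.70), SLK (-0.34) and FLNA (-0.24, but 0.0098 once the length and GC trend was taken out) fell and DOK1 (0.23) rose in knockdown cells. The DOK1 call was lost without control replicate 2 or 3 or knockdown replicate 3 (adjusted p = 0.062 to 0.092). With PRGL493 TNS1 fell (-1.77, adjusted p = 1.9e-09) and DOK1 rose at an adjusted p of 0.046. Of 9 membrane partners 2 fell in each treatment, which is close to the background. They were PLAUR and SLC3A2 (-0.21 and -0.18 in knockdown, -0.48 and -0.44 with PRGL493). Neither knockdown call held without control replicate 1 or 2, without knockdown replicate 1 or 3, or with upper-quartile factors (adjusted p = 0.057 to 0.12). With the trend on length and GC content taken out, more membrane partners were called in both treatments, some higher and some lower. Of 4 hemidesmosome genes COL17A1 rose in knockdown cells (0.36, adjusted p = 0.0012) and fell with PRGL493 (-0.87, adjusted p = 1.8e-07), and PLEC fell in knockdown cells (-0.65, SE 0.18, adjusted p = 0.037) in a call lost without any 1 control library, PRGL493 replicate 1 or PRGL493 replicate 2.

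The genes whose pattern over the 9 libraries was most like that of ITGA6 were TTPAL, PRKCE and SLC7A2 (Pearson r of log2 CPM 0.995, 0.993 and 0.989). For ITGA5 they were CARS, LOXL4 and IGFBP3 (0.997, 0.996 and 0.996). IGFBP3 was at 204 CPM in knockdown, 52.0 in PRGL493 and 162 in control cells on average. These points share 3 groups of libraries, so the values describe a common order of the groups.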

How the data were processed

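RNA-seq was done on total RNA (Trizol) of 9 MDA-MB-231 libraries, 3 per group. The deposited table holds estimated counts per gene, not scaled for depth, and 10.5% of its values were not whole. They were rounded before testing, where the design had assumed whole counts. The genome build was GRCh38, per the submitters' processing notes. How reads were aligned and counted, and whether by strand, is not given in the sources used here, so reads in exons that a member shares with an overlapping gene cannot be told apart. Library totals ran from 28673940 to 43027217.

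Genes were filtered (filterByExpr, 14135 left), scaled with TMM and fitted with edgeR 4.0.16 (R 4.3.3, glmQLFit, robust) over all 9 libraries with group as the term (6 residual degrees of freedom). SEs follow from the F statistic. Adjusted p-values are Benjamini-Hochberg over all genes, called below 0.05. The fit was tested on simulated data. Alternatives used other filters and scalings, DESeq2 1.42.0, 2 groups only, a replicate block, a length and GC trend, and each library left out. Lengths and positions are from GENCODE and promoters from RefSeq (GRCh38.p14). Protein motifs were not searched.

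The members and gene lists were chosen with earlier results of these data known. Text names all members, other integrins past the filter, up to 4 called genes per list with the smallest adjusted p, and 3 genes most like the leading member of each treatment. Some listed genes are not reported here. Libraries of a group differed beyond sampling noise (chi-square per degree of freedom at least 4.03).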

Additional observations from a re-analysis of the deposited data

How the results depend on the processing

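The members called numbered 2 to 4 in knockdown, 6 to 8 with PRGL493 and 6 to 8 in the direct contrast over 19 alternatives each, against 3, 6 and 6. ITGA3, ITGA5, ITGA6, ITGB5 and ITGB8 were called with PRGL493 in all 19, and ITGA6 in knockdown too. With the replicate block 2, 6 and 6 members were called, ITGA5 in knockdown being lost (0.15, adjusted p = 0.064). Deviations from the group mean correlated at 0.0619 to 0.152 between control and knockdown libraries of the same number, and at -0.138 to 0.0249 for other numbers. Pairs with a PRGL493 library were at -0.0841 to -0.0151 for the same number and -0.0054 to 0.0778 for other numbers. The labels do not say whether the numbers pair the samples, and these correlations do not settle it.

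Apart from FLNA, the values that reversed had not been called. In knockdown with totals alone ITGA2 was at 0.0258, ITGAV at 0.0213 and ITGB1 at 0.0191, and with upper-quartile factors at 0.0226, 0.0186 and 0.0169. With a length and GC trend taken out ITGA2 was at 0.0849, ITGA3 0.0398, ITGAV 0.0645, ITGB4 0.0803, ITGB5 0.0254 and FLNA 0.0098, and with the replicate block added 0.0849, 0.0397, 0.0644, 0.0800, 0.0241 and 0.0091. ITGB4 in the direct contrast was at 0.115 and 0.115 in these settings, past the threshold (adjusted p = 0.012 and 0.017), against -0.09 (adjusted p = 0.17). With PRGL493 ITGA1 was at -0.0079 (filter of 1 CPM) and -0.0104 (upper-quartile), and ITGA10 at 0.0042 (totals). Leaving out 1 library gave ranges of -0.0893 to 0.0818 for ITGA2, -0.0983 to 0.0381 for ITGAV, -0.0584 to 0.0104 for ITGB1 and -0.153 to 0.288 for ITGA10 in knockdown, and of -0.0608 to 0.0164 for ITGB4, -0.0283 to 0.0717 for ITGA1, -0.183 to 0.146 for ITGA10, -0.0663 to 0.154 for ITGAE and -0.419 to 0.556 for ITGAM with PRGL493. The cause was not tested. With the trend taken out, 5 laminins (4 higher, 1 lower) and 5 collagens (3 higher, 2 lower) were called in knockdown, against 3 each (1 higher, 2 lower). Membrane partners gave 5 calls in knockdown (2 higher, 3 lower) and 7 with PRGL493 (5 higher, 2 lower), against 2 each, all lower. Of hemidesmosome genes this called 3 with PRGL493, against 1, and of talins and kindlins 1 in knockdown, against 0. DOK1 with PRGL493 was lost in most settings, among them DESeq2 (adjusted p = 0.11) and each left-out control or PRGL493 library. ITGA10, ITGAM and ITGB6 gave no value under some stricter filters. Low counts limit ITGB8, ITGA2B and ITGB6.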
